A study of Mus musculus with 8 samples.

Results

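The 45 genes described here build the autophagosome and the lysosome. They were taken by symbol from the deposited table, where all 45 were found among 48500 genes, and they were measured in leukaemia stem cells with and without Nynrin. Autophagy encloses cytoplasm in a double membrane, the autophagosome, and delivers it to lysosomes for degradation. The ULK1 kinase complex starts the process, a class III PI3-kinase marks the membrane, and 2 linked conjugation reactions attach ATG8 proteins such as LC3 to lipid. Lysosomes are acidified by the V-ATPase proton pump, and the MiT/TFE transcription factors TFEB, TFE3 and MITF bind a short element, CLEAR, in promoters of many lysosomal and autophagy genes. In the blood system autophagy is known for removing mitochondria and for maintaining stem cells.

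HOXA9 and MEIS1 drove the acute myeloid leukaemia (AML) of all mice. The 4 WT libraries came from Nynrin+/+ AML and the 4 Nynrin-KO libraries from Nynrin-/- AML, and about 10000 GFP+, c-Kit+ and Gr-1- cells were sorted from bone marrow for each. WT and KO with a number from 1 to 4 name a library. The sources used here do not give the age or sex of the mice, the deleted part of Nynrin or whether each library is a separate mouse. The p-values therefore reflect only how these libraries vary, which may be technical.

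Several features of the libraries bear on every result. Depth ranged from 1825620 to 33071642 reads recovered from the FPKM values (fragments per kilobase of transcript, scaled to the depth of the library), with WT3 and KO3 the shallowest. Nynrin was low in both groups (0.008 to 0.286 FPKM in WT and 0.0982 to 0.437 in Nynrin-KO), so it does not check the labels. Xist read 15.2 to 26.5 FPKM in WT, where the Y-linked genes summed to 0.0827 to 0.434. In KO2 to KO4 Xist was 0.0175 to 0.366 FPKM and the Y-linked sum 46 to 52.1. KO1 held both, with Xist at 12.7 FPKM and a Y-linked sum of 5.84, and whether it mixes cells of both sexes was not tested. Effects of sex and of genotype cannot be told apart. The sort marker gene Kit stood at 2.63 to 6.4 FPKM in WT and 2.92 to 4.91 in Nynrin-KO. Of 9 leukaemia and progenitor markers, Kit included, 4 were lower and 2 higher past the threshold, with log2 changes from -3.48 to 1.33. Without the 1 that passed the filter on low values through Nynrin-KO alone, 1 of 8 was higher. Of all genes tested 13.8% were lower and 14% higher past the threshold. The 17 mature neutrophil markers summed to 3275 to 109809 FPKM in WT and 129478 to 294726 in Nynrin-KO, with 10 of 17 higher past the threshold and none at 0, among them Ly6g, which encodes a part of Gr-1. The 19 monocyte and macrophage markers summed to 1344 to 2575 and 1922 to 4346 FPKM, with 8 of 18 tested higher (6 of 16 without those that passed the filter on low values through Nynrin-KO alone), while Marco and Fcgr1 were each listed at 0 in 1 library. Apart from the alternatives given below, which cannot settle it, the part of these markers in the results was not tested. In bulk samples, fewer cells of a type and less RNA per cell cannot be told apart. Gm10800, a repeat-like gene model, was at 3349 to 6076 FPKM in the 3 deepest libraries, WT1, KO2 and KO4, and at 28612 to 142258 FPKM in the other 5.

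Among the members, 7 genes of the autophagosome rose in Nynrin-KO and 2 abundant lysosomal genes fell. Rb1cc1, Wipi1, Atg3, Atg7, Map1lc3a, Map1lc3b and Optn were higher, and Lamp1 and Hexa were lower. That makes 7 members higher and 2 lower of 44 tested (20.5% of them), against 27.9% of all 12524 genes tested. In the higher direction 15.9% of the members and 14% of all genes passed, and in the lower direction 2 of 44 members and 13.8% of all genes. Over both directions the members were thus called no more often than genes in general, and in the higher direction about as often. Their median log2 change was 0.29, beside -0.03 for all genes tested. All of the 7 that rose are among the 29 members of the autophagosome machinery (24.1% of these), and both that fell are among the 13 lysosomal members (15.4% of these). The difference between the roles was not tested. After quantile normalization Psap, Lamp2, Atp6ap1 and Grn were among the 11 that rose, and Lamp1 and Hexa did not pass. The call used limma on log2(FPKM + 1) with a Benjamini-Hochberg adjusted p under 0.05, and log2 changes are on that scale, which understates changes of low genes.

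The number of members that rose depended on single libraries. It was 4 without WT1, WT2, WT3 or KO1, where 9.39%, 11.6%, 13.4% and 10.8% of all genes were higher. It was 7 without WT4 (13% of all genes), 3 without KO2 or KO4 (8.68% and 8.43%) and 10 without KO3 (16.2%). Without WT1 and KO1 together 2 rose and none fell (13.9% of all genes called), and in the 5 libraries high in Gm10800 1 rose and 2 fell (8.31% of all genes called). With the mean level of the mature neutrophil markers as a covariate no member passed, and limma called only 0.0639% of all genes. The sum of these markers did not overlap between the groups, at most 109809 FPKM in WT and at least 129478 in Nynrin-KO. The covariate itself is their mean log2 level, whose overlap between the groups was not examined, and all 17 markers had positive log2 changes. The covariate and the group may therefore be hard to tell apart, and this fit cannot show what part the markers have. The median log2 change of the members was 0.37 in this fit, beside 0.29 without the covariate.

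**Figure D1:**
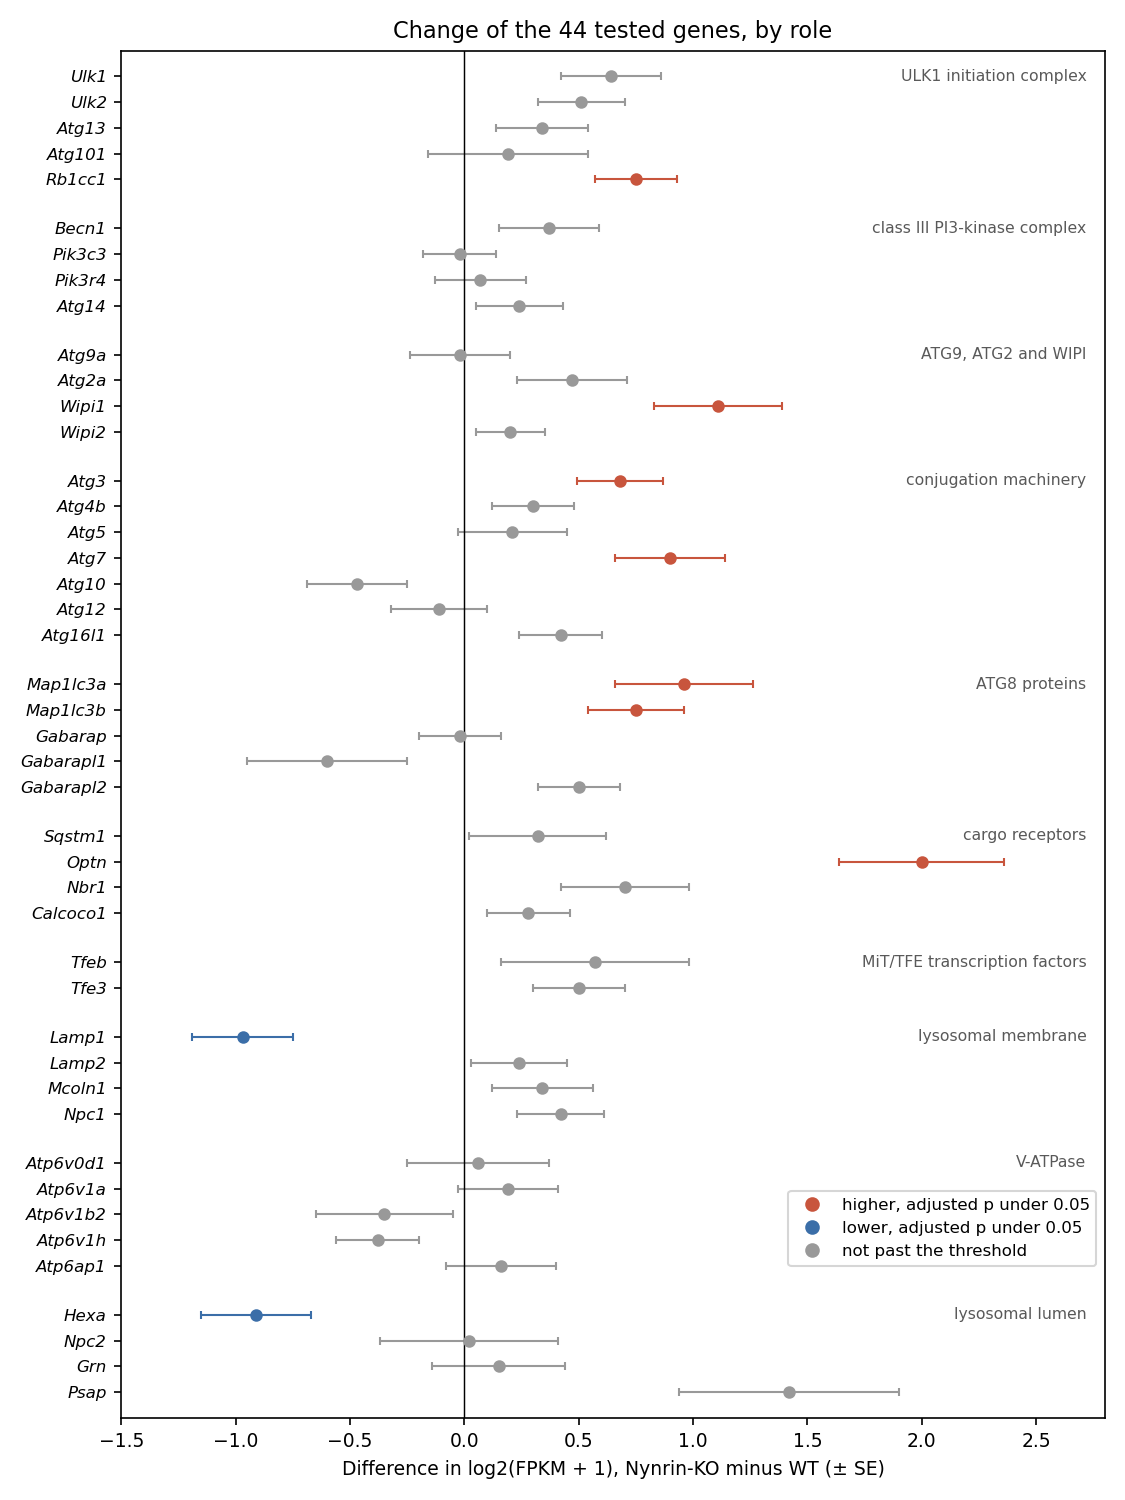
Difference in log2(FPKM + 1) between Nynrin-KO and WT (x axis, mean difference ± SE) for the 44 tested genes, grouped by role on the y axis. Red marks the 7 genes higher and blue the 2 lower past the threshold, and grey the rest. Optn lies farthest to the right at 2.0, and Lamp1 and Hexa farthest to the left at -0.97 and -0.91.

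Promoters of the members held CACGTG, the core of the CLEAR element, more often than promoters in general, but not the full element. RefSeq windows (GRCm38.p6) from 250 bases before to 50 after the start matched 36 of the 45 members. The palindrome CACGTG, which reads the same on both strands, occurred in the windows of 8 of these 36 (22.2%) and of 8.09% of 27025 genes. The 8 were Atg3, Atg5, Atg7, Atg14, Atp6v0d1, Atp6v1a, Lamp1 and Mcoln1. The longer TCACGTGA, which contains it, occurred in 4 members (11.1%) and 1.12% of genes. The full CLEAR palindrome was found in no member's window and in those of 0.37% of genes. These shares are a description with no test. A match to CACGTG alone does not show that a MiT/TFE factor binds there, and binding was not tested. The members are of the kinds of gene known to carry CLEAR, so an excess is partly built into the list. The 27025 genes were not limited to those tested here. Of the 8, Atg3 and Atg7 rose, Lamp1 fell and 5 did not pass. The stretches before the start of 4 of them are shown, with CACGTG in capitals, because they include every called member that holds it and the channel gene Mcoln1 with a pair of copies. Lamp1 (chr8:13159060-13159160, plus strand) holds 4 copies, Atg3 (chr16:45158695-45158803, plus strand) and Mcoln1 (chr8:3500408-3500518, plus strand) hold 2 each, and Atg7 (chr6:114670924-114671009, plus strand) holds 1. The starts used for Atg3, Mcoln1 and Atg7 lie inside the annotated genes, and that of Lamp1 is the annotated start.
Lamp1: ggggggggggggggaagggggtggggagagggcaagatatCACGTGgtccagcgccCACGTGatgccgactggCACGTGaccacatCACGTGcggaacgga
Atg3: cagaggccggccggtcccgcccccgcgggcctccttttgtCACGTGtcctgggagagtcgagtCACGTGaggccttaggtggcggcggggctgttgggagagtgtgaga
Mcoln1: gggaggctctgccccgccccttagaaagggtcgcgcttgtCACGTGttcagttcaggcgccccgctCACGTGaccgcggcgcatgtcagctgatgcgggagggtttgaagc
Atg7: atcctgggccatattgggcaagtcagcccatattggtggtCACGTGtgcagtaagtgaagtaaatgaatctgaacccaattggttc

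Of the 5 members of the initiation complex, Rb1cc1 rose. Rb1cc1 (mm10 chromosome 1, 6206197 to 6276648) encodes FIP200, the scaffold of the ULK1 complex. It read 4.74, 5.57, 3.22 and 4.54 FPKM in WT1 to WT4, and 7.56, 8.96, 7.2 and 9.08 in KO1 to KO4. Every Nynrin-KO library lay above every WT library, and the log2 change was 0.75 (SE 0.18, limma adjusted p = 0.0143). Rb1cc1 passed in 17 of the 21 alternatives. The kinase gene Ulk1 was 1.79, 1.63, 1.66 and 1.94 FPKM in WT and 4.37, 3.91, 1.89 and 3.43 in Nynrin-KO. Its groups met at KO3, where the value rests on 18 reads, and the difference missed the threshold (log2 change 0.64, SE 0.22, limma adjusted p = 0.0541). The related kinase gene Ulk2 went from 1.13 ± 0.139 to 2.04 ± 0.43 FPKM (SD, n = 4 each) without overlap and also missed it (limma adjusted p = 0.0754). Atg13 and Atg101, which encode the other subunits, overlapped between the groups, at 0.34 and 0.19 on the log2 scale.

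None of the 4 genes of the PI3-kinase complex passed. Becn1, which encodes Beclin 1, read 7.28 to 13 FPKM in WT and 9.96 to 16 in Nynrin-KO. The catalytic subunit gene Pik3c3 had the same mean level to within its spread, 7.19 ± 0.329 and 7.15 ± 1.31 FPKM (SD, n = 4 each). The regulatory subunit gene Pik3r4 and Atg14, whose product directs the complex to autophagosome formation, had log2 changes of 0.07 and 0.24. The SE of these 4 changes ranged from 0.16 to 0.22.

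Among the genes for membrane supply, Wipi1 rose. Wipi1 (chromosome 11, 109573331 to 109611967) encodes a reader of the lipid that the PI3-kinase makes. Its level was 3.28, 4.95, 5.65 and 7.4 FPKM in WT and 19.2, 10.1, 8.69 and 13.2 in Nynrin-KO. KO1 was the highest and WT1 the lowest, and the groups did not overlap (log2 change 1.11, SE 0.28, limma adjusted p = 0.0184). WT1 and KO1 also held the least and the most mature neutrophil marker RNA, at 0.583% and 39.3% of summed FPKM. Wipi1 passed in 17 of the 21 alternatives. The losses included that without WT1 and KO1 (log2 change 0.74, limma adjusted p = 0.0809). With the neutrophil level as covariate Wipi1 was also lost (log2 change 0.45, limma adjusted p = 0.479). So was every other called member, and only 0.0639% of all genes passed in that fit. Rb1cc1 was lost in the same 4 alternatives as Wipi1. The part of neutrophil RNA in the level of Wipi1 was not tested. Its relative Wipi2, which recruits ATG16L1, read 6.8 to 9.32 and 8.79 to 9.46 FPKM and did not pass. Neither did Atg9a, which encodes the membrane scramblase of ATG9 vesicles (2.29 ± 0.109 and 2.32 ± 0.795 FPKM), nor the lipid transfer gene Atg2a (1.58 to 2.24 and 1.55 to 4.37 FPKM).

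In the conjugation machinery 2 of 7 members rose. Atg7 (chromosome 6, 114643097 to 114860614) encodes the E1-like enzyme that activates both ATG12 and the ATG8 proteins. Its level was 7.31, 8.13, 4.84 and 10.5 FPKM in WT and 15.5, 16.4, 11 and 17.1 in Nynrin-KO. KO3 stood just above WT4, so the groups were apart by a small margin (log2 change 0.90, SE 0.24, limma adjusted p = 0.0217). Atg7 passed in 13 of the 21 alternatives and was lost without WT1, KO1, KO2 or KO4. Atg3 (chromosome 16, 45158785 to 45188538) encodes the E2-like enzyme that hands ATG8 proteins to lipid. It read 42.9, 43.1, 41.1 and 52 FPKM in WT against 74.5, 72.2, 57.1 and 87.3 in Nynrin-KO, with no overlap (log2 change 0.68, SE 0.19, limma adjusted p = 0.0268). Atg3 passed in 10 of the 21 and was lost without any 1 library other than WT4 or KO3, and with libraries shifted to the same median. Atg10, the E2-like enzyme gene of the ATG12 branch, was 3.86 to 6.01 FPKM in WT and 2.07 to 4.6 in Nynrin-KO, a log2 change of -0.47 that missed the threshold (limma adjusted p = 0.141). The genes of the ATG12, ATG5 and ATG16L1 complex did not pass, with log2 changes of -0.11 for Atg12, 0.21 for Atg5 and 0.42 for Atg16l1. Atg16l1 was nevertheless apart between the groups, at 3.53 to 5.73 and 5.84 to 7.83 FPKM. Atg4b, which encodes the protease that trims ATG8 proteins, read 6.33 to 8.9 and 8.24 to 12.7 FPKM.

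The LC3 genes rose among the ATG8 family and the other 3 did not pass. Map1lc3b (chromosome 8, 121590361 to 121598760), which encodes LC3B, read 39.6, 30.7, 25.5 and 39 FPKM in WT and 57.8, 59.6, 45.2 and 65.6 in Nynrin-KO. All 4 Nynrin-KO libraries were above WT1, the highest WT library (log2 change 0.75, SE 0.21, limma adjusted p = 0.0264). Map1lc3b passed in 11 of the 21 alternatives and was lost without WT2, WT3, KO1, KO2 or KO4, and with libraries shifted to the same median. Map1lc3a (chromosome 2, 155276297 to 155278073), which encodes LC3A, was less abundant, at 3.02, 2.54, 1.83 and 3.65 FPKM in WT and 6.73, 8.38, 2.95 and 8.37 in Nynrin-KO. KO3 fell within the WT range, and its value and that of WT3 rest on 6 and 4 reads (log2 change 0.96, SE 0.30, limma adjusted p = 0.0398). Map1lc3a passed in 9 of the 21 and was lost without any 1 library other than WT4 or KO3, with libraries shifted to the same median and after quantile normalization. Gabarap was the most abundant ATG8 gene, at 98.5, 107, 105 and 106 FPKM in WT and 98.8, 104, 84.3 and 130 in Nynrin-KO. Its mean was 104 FPKM in both groups. Gabarapl1 read 14.4 FPKM in WT1, 3.36 to 6.47 in the other WT libraries and 2.71 to 4.86 in Nynrin-KO (log2 change -0.60, limma adjusted p = 0.239). Gabarapl2 went from 13 ± 1.74 to 18.8 ± 2.84 FPKM (SD, n = 4 each) and missed the threshold (log2 change 0.50, limma adjusted p = 0.0627).

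The ratio of Map1lc3b to Gabarap within a library does not change when a whole library is rescaled. It was 0.402, 0.286, 0.242 and 0.367 in WT1 to WT4 and 0.585, 0.574, 0.537 and 0.504 in KO1 to KO4. The groups were apart, at 0.324 ± 0.0733 and 0.55 ± 0.0369 (SD, n = 4 each). The ratio of Map1lc3b to Gabarapl2 overlapped between the groups, at 2.33 to 2.93 in WT and 2.92 to 3.21 in Nynrin-KO. These ratios and that of Lamp2 to Lamp1 below were chosen after the values were seen and are given without a test.

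Optn had the largest log2 change of all 44 tested members. Optn (chromosome 2, 5020642 to 5064051) encodes optineurin, a receptor that links ubiquitinated mitochondria and bacteria to LC3. Its level was 0.197, 1.57, 1.95 and 2.6 FPKM in WT, from 17, 29, 10 and 117 reads. In Nynrin-KO it was 8.92, 5.24, 11.9 and 9.45 FPKM, from 221, 316, 57 and 709 reads. The lowest Nynrin-KO library was above the highest WT library, and the means were 1.58 ± 1.01 and 8.89 ± 2.76 FPKM (log2 change 2.0, SE 0.36, limma adjusted p = 0.00483). Optn passed in 20 of the 21 alternative analyses, including that of the 5 libraries high in Gm10800 (log2 change 1.91) and that without WT1 and KO1 (1.65). It did not pass with the neutrophil level as a covariate (log2 change 1.05, limma adjusted p = 0.178).

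The other cargo receptor genes did not pass. Sqstm1, which encodes p62, the receptor for ubiquitinated aggregates, read 54.6, 34.5, 45.9 and 48.2 FPKM in WT and 56.3, 75.5, 31.1 and 76.9 in Nynrin-KO. KO3 was the lowest of all 8 libraries and KO2 and KO4 the highest (log2 change 0.32, SE 0.30). Nbr1, a relative of p62, was at 2.77 to 6.46 FPKM in WT and 6.86 to 12.6 in Nynrin-KO without overlap, yet missed the threshold (log2 change 0.70, limma adjusted p = 0.0904). Calcoco1, which encodes a receptor for autophagy of the endoplasmic reticulum, read 3.09 to 3.95 and 3.45 to 5.93 FPKM.

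**Figure D2:**
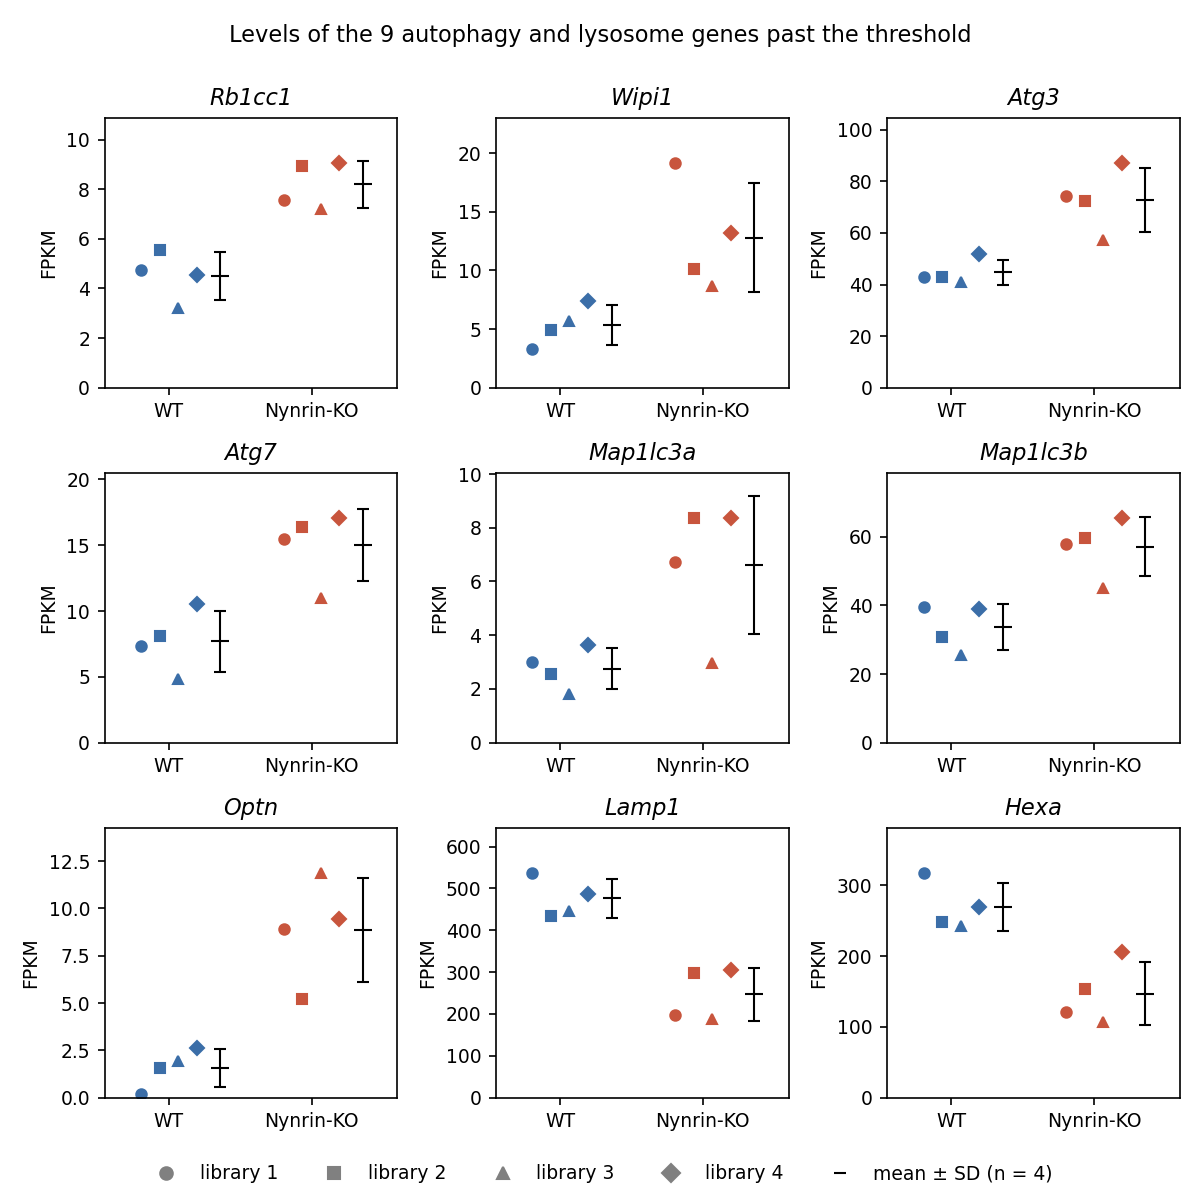
FPKM (y axis, from 0) of the 9 genes past the threshold in each library, blue for WT and red for Nynrin-KO, with the mean ± SD (n = 4) in black. The groups are apart for all but Map1lc3a, where KO3 at 2.95 FPKM lies within the WT range of 1.83 to 3.65.

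The MiT/TFE genes were low and none passed. Tfeb read 0.968, 0.483, 3.7 and 1.04 FPKM in WT and 2.07, 4.85, 1.17 and 2.53 in Nynrin-KO, so the groups overlapped, and the values of WT2 and KO3 rest on 8 and 5 reads. Tfe3 went from 1.66 to 1.96 FPKM in WT to 2.17 to 4.33 in Nynrin-KO without overlap (log2 change 0.50, limma adjusted p = 0.0961). Mitf was the 1 member not tested, since it did not reach 1 FPKM in 4 libraries. It was 0.334, 0.463, 0.626 and 0.725 FPKM in WT and 0.951, 1.43, 1.68 and 1.54 in Nynrin-KO, from 6 reads in WT3 to 216 in KO4, and the groups did not overlap. Tfe3, Lamp2 and Atp6ap1 are the members on the X chromosome. None of the 3 passed, while 30% of the 383 X-linked genes tested did.

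Lamp1 was the most abundant member in WT and fell. Lamp1 (chromosome 8, 13159161 to 13175338) encodes a heavily glycosylated protein of the lysosomal membrane. It read 538, 435, 445 and 486 FPKM in WT and 198, 298, 187 and 306 in Nynrin-KO. No Nynrin-KO library reached the lowest WT library, and the means were 476 ± 46.8 and 247 ± 63.4 FPKM (SD, n = 4 each, log2 change -0.97, SE 0.22, limma adjusted p = 0.0128). Lamp1 passed in 17 of the 21 alternatives, among them the 5 libraries high in Gm10800 (log2 change -1.24), but not after quantile normalization (-0.38, limma adjusted p = 0.0908) or without WT1 and KO1 (-0.82, limma adjusted p = 0.0815). Its partner Lamp2, which is also needed for chaperone-mediated autophagy, read 93.5, 102, 82.3 and 115 FPKM in WT and 89, 136, 109 and 133 in Nynrin-KO and did not pass (log2 change 0.24). The ratio of Lamp2 to Lamp1 was 0.174, 0.233, 0.185 and 0.237 in WT and 0.449, 0.457, 0.585 and 0.435 in Nynrin-KO. Every Nynrin-KO library thus held more Lamp2 per Lamp1 than any WT library.

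**Figure D3:**
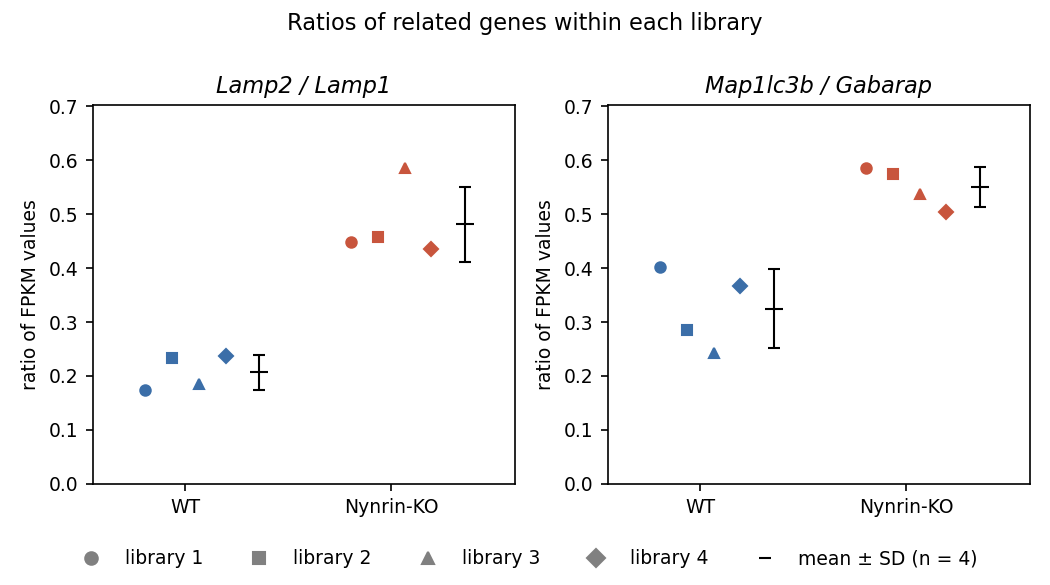
Ratios of FPKM values (y axis, from 0) within each library for Lamp2 to Lamp1 and Map1lc3b to Gabarap, blue for WT and red for Nynrin-KO, with the mean ± SD (n = 4) in black. The groups are apart in both panels: no WT library exceeds 0.237 for Lamp2 to Lamp1 or 0.402 for Map1lc3b to Gabarap, and no Nynrin-KO library is below 0.435 and 0.504.

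The other membrane genes did not pass. Mcoln1, which encodes a calcium channel of the lysosome, read 3.46 to 5.47 FPKM in WT and 4.31 to 8.72 in Nynrin-KO. Npc1, which encodes the membrane protein that exports cholesterol, read 1.57 to 2.19 and 2.27 to 3.99 FPKM without overlap (log2 change 0.42, limma adjusted p = 0.121).

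None of the 5 V-ATPase members passed. Atp6v1a and Atp6v1b2 encode the catalytic and the nucleotide-binding subunit of the ring that splits ATP. Atp6v1a read 24.8 to 40.7 FPKM in WT and 33 to 50.4 in Nynrin-KO, and Atp6v1b2 read 167, 138, 124 and 168 in WT and 79.2, 165, 82 and 167 in Nynrin-KO. KO1 and KO3 stood apart with the lowest Atp6v1b2, while KO2 and KO4 were within the WT range. Atp6v1h, which encodes a regulatory subunit, was 9.71 to 14.9 FPKM in WT and 8.5 to 11.3 in Nynrin-KO (log2 change -0.38, limma adjusted p = 0.145). The membrane-sector gene Atp6v0d1 and the accessory gene Atp6ap1 had log2 changes of 0.06 and 0.16.

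In the lysosomal lumen Hexa fell. Hexa (chromosome 9, 59539540 to 59565109) encodes the alpha subunit of hexosaminidase A, the enzyme that degrades the ganglioside GM2. Its level was 318, 248, 242 and 269 FPKM in WT and 121, 154, 107 and 206 in Nynrin-KO. The groups were apart, with WT1 and KO4 the highest of each (log2 change -0.91, SE 0.24, limma adjusted p = 0.0215). Hexa passed in 15 of the 21 alternatives. The losses included those without WT1, without KO1 and after quantile normalization (log2 change -0.33, limma adjusted p = 0.17), while it passed in the 5 libraries high in Gm10800 (-1.14).

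Psap had the second largest log2 change and missed the threshold. Psap encodes prosaposin, the precursor of the saposins that assist lipid-degrading enzymes. It read 122, 86.3, 203 and 222 FPKM in WT and 171, 683, 335 and 624 in Nynrin-KO. KO1 was within the WT range and KO2 to KO4 were above it (log2 change 1.42, SE 0.48, limma adjusted p = 0.056), and without KO1 Psap passed. Csf1r, the receptor gene of the monocyte growth factor, read 29.4, 24.6, 33.1 and 39.5 FPKM in WT and 31, 139, 70.6 and 124 in Nynrin-KO. Both genes were highest in KO2, then KO4, then KO3. The sum of the 19 monocyte and macrophage markers had another order, at 1922, 4346, 2924 and 2344 FPKM in KO1 to KO4, and the part of monocytic RNA in the level of Psap was not tested. Grn, which encodes progranulin, read 166 to 258 FPKM in WT and 153 to 360 in Nynrin-KO. Npc2, which encodes the soluble partner of NPC1, read 132 to 192 and 74.6 to 313 FPKM, with KO1 the lowest and KO2 the highest of all 8 libraries.

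Within the Nynrin-KO group most lysosomal members divided the libraries in the same way. Both KO2 and KO4 were above both KO1 and KO3 for 10 of the 13 lysosomal members and for 27 of all 45 members (60%). The same held for 33.3% of the 12524 genes tested. The reverse order occurred for no member and for 2395 of those 12524 genes. The ratio of the mean of KO2 and KO4 to that of KO1 and KO3 was 2.58 for Psap, 2.06 for Atp6v1b2, 2.05 for Npc2 and 1.84 for Grn. It was 2.59 for Csf1r and 2.54 for the macrophage gene Cd68, picked after their values were seen. Of the 19 monocyte and macrophage markers 8 (42.1%) had this order, and their sum did not, since KO4 lay below KO3. KO2 and KO4 are the deep libraries low in Gm10800, at 23048270 and 28687640 reads against 9475829 in KO1 and 1825620 in KO3. Depth and the level of Gm10800 therefore go together here and cannot be told apart. Optn and Wipi1 did not follow this order, with ratios of 0.705 and 0.836.

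**Figure D4:**
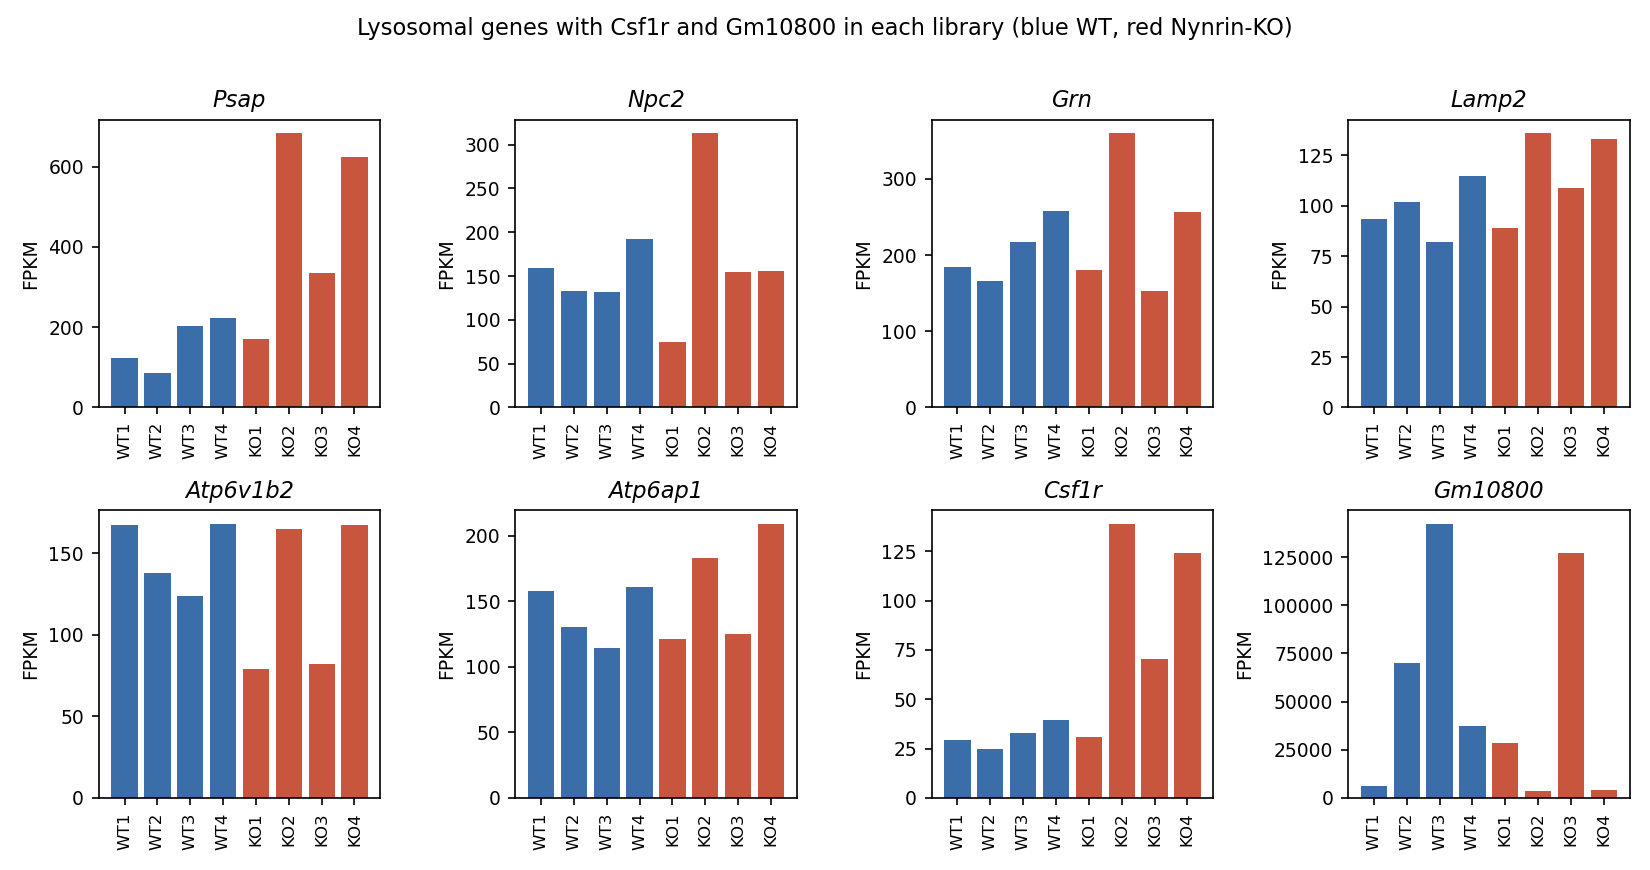
FPKM (y axis, from 0) of Psap, Npc2, Grn, Lamp2, Atp6v1b2 and Atp6ap1 in each library (x axis, blue for WT and red for Nynrin-KO), beside the monocyte gene Csf1r and the gene model Gm10800. KO2 and KO4 exceed KO1 and KO3 for all 6 lysosomal genes and Csf1r, and hold the least Gm10800 of the Nynrin-KO group, at 3349 and 3990 FPKM. The 6 are among the 10 of 13 lysosomal members with this order. Mcoln1, Npc1 and Atp6v0d1, which lack it, are not shown.

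Groups did not overlap for 13 of the 44 tested members, 11 with Nynrin-KO higher and 2 lower, against 31.7% of all genes tested (16.7% higher and 15% lower). Of those 13, Ulk2, Atg16l1, Nbr1, Tfe3 and Npc1 missed the threshold of limma. Levels differed widely between roles: the median of the WT means was 141 FPKM for the 13 lysosomal members and 5.38 FPKM for the 29 of the autophagosome machinery. The lysosomal members summed to 1531 to 1978 FPKM in WT and 1126 to 2387 in Nynrin-KO.

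Outside the 45 members, 6 further lists of the pathway held 126 tested genes, of which 22 rose and 3 fell (19.8%, beside 27.9% of all genes). Wdfy3 and Igf2r, 2 of the 22, passed the filter on low values through Nynrin-KO alone, and without them 20 of 124 rose. Of 16 other core autophagy genes, Wdfy3 left out, 3 rose and none fell, while 14% of all genes rose. The ATG8 protease gene Atg4c went from 3.3 ± 0.308 to 7.71 ± 1.48 FPKM (SD, n = 4 each, limma adjusted p = 0.00357). Wdfy3, which encodes the adaptor ALFY, read 0.0487 to 0.495 FPKM in WT and 1.38 to 2.68 in Nynrin-KO. Uvrag, a partner of Beclin 1, and Zfyve1 rose by 0.61 and 0.60 on the log2 scale. Atg4c passed in 19 of the 21 alternatives, Uvrag in 12 and Zfyve1, at a limma adjusted p of 0.0496, in 5. Uvrag was lost without WT1, WT2, WT4, KO2 or KO4, and Zfyve1 without any 1 library other than WT3 or KO3.

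Of 29 genes of nutrient sensing 5 rose (17.2%, beside 14% of all genes) and none fell. The Rag GTPase genes Rraga and Rragc, whose products bring mTORC1 to the lysosome, rose by 1.40 and 0.60 on the log2 scale. Fnip1, which encodes a partner of folliculin, rose by 0.80. The AMPK subunit genes Prkaa1 and Prkab1 rose by 0.78 and 0.69, Prkaa1 from 3.78 ± 0.372 to 7.34 ± 1.64 FPKM (limma adjusted p = 0.0138). Mtor itself read 1.43 to 2.38 FPKM in WT and 1.53 to 1.79 in Nynrin-KO and did not pass. Rraga and Prkaa1 passed in 18 of the 21 alternatives and Prkab1 in 14, with losses without WT2, KO1 or KO4. Fnip1 passed in 9 and was lost without WT1, WT3, KO1, KO2 or KO4, and Rragc passed in 7 and was lost without any 1 library other than WT3.

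Of 17 genes for fusion with lysosomes only Plekhm1 rose (5.88%, beside 14% of all genes). Plekhm1, which encodes an adaptor of RAB7, went from 1.73 ± 0.297 to 3.55 ± 0.251 FPKM (limma adjusted p = 0.00947). Of 12 other V-ATPase genes only Atp6v1d rose (8.33%, beside 14% of all genes), by 0.69 on the log2 scale. Each passed in 17 of the 21 alternatives. With the 5 members, 1 of 17 tested V-ATPase genes passed, beside 27.9% of all genes.

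Of 30 tested lysosomal hydrolase and activator genes 5 rose, 2 fell and 23 did not pass (23.3% called, beside 27.9% of all genes). The acid phosphatase genes Acp5 and Acp2 rose by 1.37 and 1.18 on the log2 scale, and Hgsnat, an enzyme gene of heparan sulfate breakdown, by 1.19. Galc, the galactosylceramidase gene, rose by 0.86. The beta-glucuronidase gene Gusb went from 209, 135, 92.7 and 113 FPKM in WT to 40.6, 64, 36.7 and 75.6 in Nynrin-KO (log2 change -1.32, limma adjusted p = 0.0159). Naglu, another enzyme of heparan sulfate breakdown, fell with a log2 change of -0.97. Acp5, Acp2 and Hgsnat passed in 19 of the 21 alternatives, Gusb in 18, Galc in 13 and Naglu in 12. Galc was lost without WT1, KO1 or KO4, and Naglu without WT1, WT3 or KO1.

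Of 21 tested genes of lysosomal membrane and sorting 6 rose and 1 fell (33.3% called, beside 27.9% of all genes), and without Igf2r 5 of 20 rose. The tetraspanin gene Cd63 went from 2.27, 23.3, 8.45 and 23.5 FPKM in WT to 186, 61.2, 89.8 and 178 in Nynrin-KO (log2 change 3.33, limma adjusted p = 0.0075). Of the mannose 6-phosphate receptor genes, whose products carry hydrolases to the lysosome, Igf2r read 0.034 to 0.45 FPKM in WT and 1.23 to 2.33 in Nynrin-KO. M6pr fell from 118 ± 29 to 65.9 ± 16.2 FPKM (SD, n = 4 each, limma adjusted p = 0.0348). The sorting receptor gene Sort1, the channel gene Tpcn2, Cln3 and Gnptg rose by 1.13, 1.09, 0.99 and 0.75 on the log2 scale. Cd63 passed in 20 of the 21 alternatives, Sort1 in 19 and Tpcn2 in 18. M6pr passed in 9 and was lost after quantile normalization and without any 1 library other than WT3 or KO4. Cln3 and Gnptg passed in 8 each and were lost without WT1, KO1, KO2 or KO4, Cln3 also without WT2 or WT4 and Gnptg also without WT3.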

How the data were processed

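The authors deposited 1 table of 48500 genes with 8 value columns whose header names no unit. The deposited values were read as FPKM, since each value times the longest GENCODE M21 transcript length gave nearly equal sums in all columns, and 99.45% to 99.48% of values up to 200 reads were whole multiples of 1 read (tolerance 0.1 read). Per the submitters' processing notes the tools included HTSeq, Bowtie 0.12.9 and Cufflinks 2.1.1, whose roles are not stated, and the build was mm10. Strand use and the rule for multiply matching reads are not given in the sources used. Exons of 13 members overlap another gene's. The level of 3 reads for 1 kb ranged from 0.0907 FPKM (WT1) to 1.64 FPKM (KO3), which covers counting error only.

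A gene was tested if 4 or more libraries reached 1 FPKM. The two-sided test was limma's (version 3.58.1 under R 4.3.3), with the group as the only term and trend and robust estimation, fitted to log2(FPKM + 1). The fit was tested on simulated data. Tables and plots used Python 3.11.15, pandas 2.3.3, numpy 2.4.6 and matplotlib 3.10.9. Replicate numbers come from the titles and were not used as pairs in the main fit. The 21 alternatives cover the pseudocount, filter, scaling, limma options, weights, the replicate block, libraries left out, covariates (the mean log2 level of the neutrophil markers, or Gm10800) and voom on recovered reads.

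Members and lists were chosen with earlier results of these data known. All 45 members are named, and from each other pathway list up to 4 genes past the threshold with the smallest p. Rragc, Galc, Naglu, Cln3, Gnptg, M6pr, Mtor and Cd68 fall outside this rule and were named after their values were seen. Some results are not reported here.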

Additional observations from a re-analysis of the deposited data

Results flagged for a closer look

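Among the 4 libraries of a group, 4 values stood apart from the other 3 by a gap large against the range of the group (Dixon's criterion at the 95% level on log2 values). With 90 groups examined, chance alone flags about 1 in 20. Pik3c3 was 6.7 FPKM in WT4, against 7.29 to 7.41 in the other WT libraries. WT3 held 10.4 FPKM of Atg12, against 16.4 to 18, and 2.77 FPKM of Nbr1, against 5.64 to 6.46. KO4 held 50.4 FPKM of Atp6v1a, against 33 to 35.5 in the other Nynrin-KO libraries.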

How the results depend on the processing

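The number of members higher in Nynrin-KO, 7 as reported, changed with the setting, and shares of all genes higher stand in brackets. It was 1 with no filter on low values (1.63%), 4 with libraries shifted to the same median (11.6%) and 11 after quantile normalization (15.3%). With array weights it was 15 (19.7%) and with voom on recovered reads 13 (18.9%). Without WT1 and KO1 it was 2 (6.72%). In the 5 libraries high in Gm10800 it was 1 (1.9%), and with the neutrophil level as covariate 0 (0.0319%). Leaving out 1 library gave 3 to 10. The number lower, 2 as reported, was 0 with no filter (1.87% of all genes lower) and after quantile normalization (14.7%). It was also 0 without WT1 and KO1 (7.15%) and with the neutrophil covariate (0.0319%). With the level of Gm10800 as covariate it was 6 (20.6%), and with 1 library left out 1 to 3 (10.2% to 15.8%). The median log2 change of the tested members stayed positive, from 0.18 to 0.40. With the replicate number as a block, 8 rose and 2 fell (10.8% and 11.8% of all genes). Same-numbered libraries correlated at -0.213, -0.389, 0.329 and 0.008 in their deviations. WT3 and KO3, which correlated at 0.329, are also the shallowest libraries. Whether the numbers pair the libraries is not settled by these values.

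The 9 members past the threshold kept their direction in all 21 alternatives. Members that were not past it changed sign as follows (log2 changes). In the 5 libraries high in Gm10800: Atg101 -0.32, Atg5 -0.019, Sqstm1 -0.018, Lamp2 -0.002, Atp6v0d1 -0.16, Atp6ap1 -0.11, Npc2 -0.48 and Grn -0.33. With Gm10800 as covariate: Atg101 -0.041, Atp6v0d1 -0.17, Atp6ap1 -0.017, Npc2 -0.16 and Grn -0.015. With array weights: Pik3c3 0.009, Atg9a 0.11 and Gabarap 0.08. With libraries at the same median: Atp6v0d1 -0.001 and Npc2 -0.039. After quantile normalization: Gabarap 0.40 and Atp6v1b2 0.12. With voom: Atg9a 0.15 and Npc2 -0.012. Without WT1 and KO1: Pik3c3 0.095 and Atg12 0.032. With the neutrophil covariate: Pik3c3 0.11, Atg12 0.059 and Gabarapl1 0.14. With 1 library left out, the ranges were -0.11 to 0.082 for Pik3c3, -0.003 to 0.19 for Pik3r4, -0.12 to 0.17 for Atg9a, -0.13 to 0.079 for Gabarap, -0.16 to 0.3 for Atp6v0d1, -0.32 to 0.37 for Npc2 and -0.079 to 0.33 for Grn. The causes were not tested.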
